A study of Mus musculus with 15 samples.

Results

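Oxidative phosphorylation genes encode the subunits of complexes I to IV of the respiratory chain and of the ATP synthase, complex V, in the inner mitochondrial membrane. They were taken from the deposited gene table by symbol: Nduf, Sdha to Sdhd, Uqcr, Cox4 to Cox8 and Atp5 for complexes I to V. The protein-coding genes of the mitochondrial genome were added by their mt- symbols. Of 51912 gene identifiers, 108 had a matching symbol. Of these, 7 were left out as pseudogenes by symbol and 9 for a mean below 1 TPM over the 15 libraries (a level scaled to library size and corrected for transcript length). Ndufb4c was kept by this rule, although the annotation lists it as a processed pseudogene and all of its 76-base sequences occur in other genes. The remaining 92 genes comprise 79 of the nuclear genome, with 36, 4, 8, 14 and 17 in complexes I, II, III, IV and V. The others are 13 of the mitochondrial genome (7 in complex I, 1 in III, 3 in IV and 2 in V). Ndufa4 was counted in complex IV, where its protein resides, although its symbol is that of a complex I gene. At the level limit, Cox6b2 with 4.52 TPM and Atp5s with 8.20 TPM were the lowest genes kept, and Cox6c2 with 0.687 TPM and Cox7a1 with 0.444 TPM the highest left out.

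The libraries came from wild-type mouse B cells with no further treatment. They were cultured for 6 days on 40LB feeder cells in the presence of IL-4 (100 ng/ml). Bulk, unsorted cells were sampled on day 6 (D6). The other cells were moved off the feeders into unstimulated medium for 2 days and sorted on day 8. The 4 sorted groups are IgE and IgG1 plasma cells (PC) and IgE and IgG1 cells that the labels call iGC. Each group has 3 libraries described as independent biological replicates; whether these are animals or cultures is not stated, so p-values measure the spread between these libraries.

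Electrons from NADH enter at complex I and those from succinate at complex II. Complexes III and IV pass them on to oxygen, and the proton gradient built up by complexes I, III and IV drives ATP synthesis by complex V. Complex II is wholly nuclear-encoded, whereas the other complexes combine a few hydrophobic core subunits made inside the mitochondrion with many subunits that are encoded in the nucleus and imported. Mitochondrial messenger RNAs are cut from long transcripts of both strands of the small circular genome, and most carry short poly(A) tails.

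Counts of 7 mitochondrial genes cannot be read without their nuclear copies. Pseudogenes on chr1:24611535-24616197, minus strand (GRCm38), share at least 20% of the 76-base sequences of mt-Co1, mt-Co2, mt-Co3, mt-Atp6, mt-Nd3, mt-Nd4 and mt-Nd4l, and 76 bases is the read length. For mt-Co3 (chrM:8607-9390, plus strand) the 783 bases aligned to the pseudogene Gm28437 held 0 substitutions, and those of mt-Atp6 to Gm10925 and mt-Co2 to Gm28661 likewise held 0. The read-length stretch that follows, bases 301 to 376 counted from the 5′ end of mt-Co3, is shown because it is the same in both genes; no letter is in capitals because none differs.
mt-Co3 and Gm28437: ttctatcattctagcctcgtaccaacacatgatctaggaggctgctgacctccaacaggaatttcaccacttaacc
A read with these letters has 2 sources of equal fit, and the deposited counts divide such reads between them.

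The division was uneven from library to library. Of the counts of mt-Co3 plus Gm28437, the mitochondrial gene was credited with between 0.000407% and 26.5%, and of those of mt-Atp6 plus Gm10925 with between 2.35% and 17.3%. The share was 3.45% to 16.4% for mt-Co2, 30.8% to 100.0% for mt-Nd3, 27.8% to 100.0% for mt-Nd4l, 76.8% to 92.4% for mt-Co1 and 94.7% to 100.0% for mt-Nd4. For these 7 genes, each gene and its copy were therefore summed ("pooled") and the fit repeated; values below are pooled unless called deposited. Pooled values include any transcript of the pseudogenes themselves. mt-Co1 shares 39.4% of its 76-base sequences with other genes in all, of which Gm29216 accounts for 27.5%. The other 6 mitochondrial genes, mt-Nd1, mt-Nd2, mt-Nd5, mt-Nd6, mt-Cytb and mt-Atp8, share less than 10% of their 76-base sequences with another annotated gene and have the same counts either way. Sequence outside annotated transcripts was not searched. Whether the chr1 stretch holds an unannotated copy of mt-Atp8, which starts between mt-Co2 and mt-Atp6, was not tested. Among the 79 nuclear genes, 12 share 10% or more, Ndufb4c, Atp5g2, Cox7c, Ndufb4, Uqcrb and Ndufs5 the most, and their reads may be divided in the same way.

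**Figure D1:**
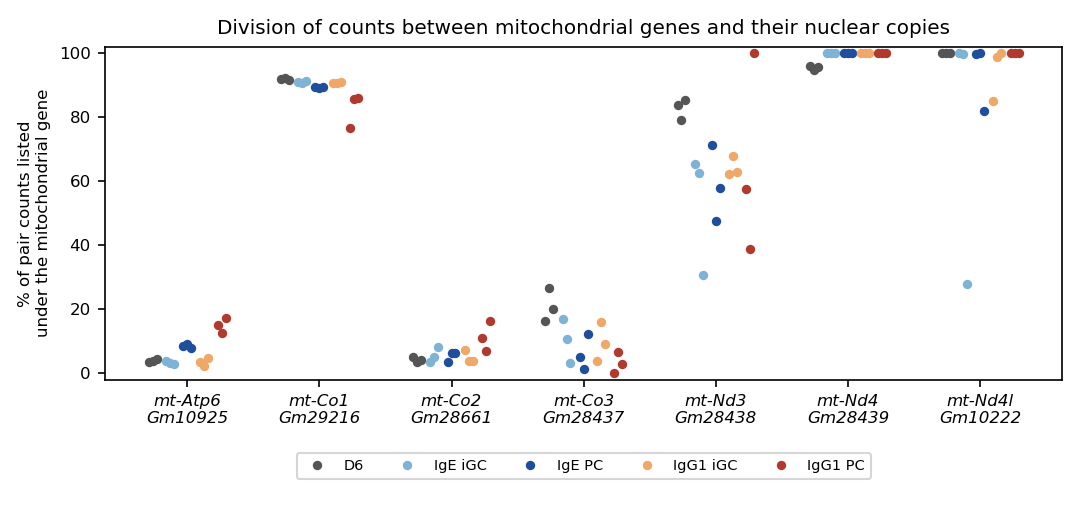
Percent of the summed counts of a mitochondrial gene and its nuclear copy that the deposited table lists under the mitochondrial gene; each point is 1 library, by group, on a linear axis. mt-Co1 and mt-Nd4 keep most of their counts, whereas mt-Co2 and mt-Atp6 lie below 20% in every library and mt-Co3 scatters between near 0 and 26.5%.

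Deposited counts summed to between 17740876 and 54067953 per library, lowest in IgE iGC replicate 3, and 75 of the 79 nuclear genes had at least 100 counts in every library. The labels were checked with marker sums in CPM (library-scaled counts, with TMM scaling that centres the bulk of genes). The 5 plasma cell markers summed to 16290 to 18760 in IgE PC and 9098 to 13370 in IgG1 PC, against 371 to 740.5 in the iGC groups. The 5 B cell markers summed to 3173 to 3343 in IgE PC and 4358 to 4496 in IgG1 PC, without overlap. They summed to 7449 to 7717 in IgE iGC, 7734 to 7922 in IgG1 iGC and 4150 to 4394 in D6. The PC groups thus differed in both sums, and the part of this in the comparisons below was not tested. The 8 feeder-type markers, none at 0 throughout, summed to 302 to 495 CPM in D6, 51.4 to 69.9 in IgE iGC, 29.5 to 62.2 in IgG1 iGC, 66.3 to 203 in IgG1 PC and 22.5 to 37.8 in IgE PC. Immunoglobulin genes held 19.8 to 21.5% of the counts in IgE PC and 15.3 to 21.7% in IgG1 PC, but 1.40 to 1.48% in D6, and directions depend on scaling. With total counts in place of TMM, the all-gene median of the log2 fold change moved from -0.078 to -0.55 for IgE PC against IgE iGC and from 0.013 to -0.22 for IgG1 PC against IgG1 iGC. It moved from -0.052 to -0.30 for IgE PC against IgG1 PC, while log2 TPM gave the first pair of comparisons medians of -0.49 and -0.42. In bulk libraries a lower value can mean less RNA per cell or fewer cells of a type, and these cannot be told apart.

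The mitochondrial share relative to the nuclear one was lowest in IgG1 plasma cells. The ratio of the deposited counts of the 13 mitochondrial genes to those of the 79 nuclear genes, which does not depend on library scaling, was 1.59, 2.64 and 1.88 in IgG1 PC. It was 4.72, 3.84 and 4.04 in IgG1 iGC, 3.51, 3.92 and 4.26 in IgE iGC, 3.36, 3.20 and 3.43 in IgE PC and 3.35, 3.81 and 3.75 in D6. All 3 IgG1 PC libraries lay below the other 12; the IgE PC libraries also lay below those of both iGC groups, by less, and overlapped D6.

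The ratio was 2.10-fold lower in IgG1 PC than in IgG1 iGC and 1.17-fold lower in IgE PC than in IgE iGC (differences of mean log2 ratios, n = 3 libraries each). It was 1.67-fold higher in IgE PC than in IgG1 PC. The IgG1 difference was 2.15-fold with pooled counts, 2.09-fold with the 6 mitochondrial genes that share little with annotated genes, and 2.48-fold with TPM. No test was run on these sums. Within IgG1 PC, replicates 1 and 3 had the lowest ratios and the highest feeder-type marker sums, 203 and 192 CPM against 66.3 in replicate 2. These sums were higher in IgG1 PC than in IgG1 iGC (29.5 to 62.2 CPM) without overlap, so they moved with this comparison. The part of other cells in the ratio was not tested; the D6 libraries, with larger marker sums, had ratios of 3.35 to 3.81.

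**Figure D2:**
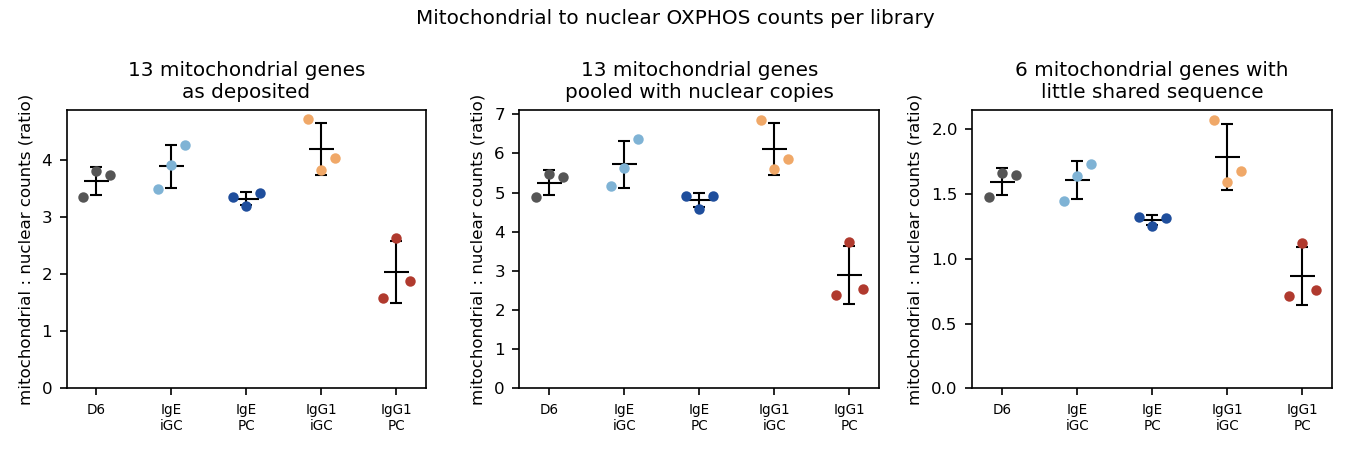
Ratio of mitochondrial to nuclear oxidative phosphorylation counts in each library (points) with group means and SD (n = 3), from deposited counts, from counts pooled with nuclear copies, and from the 6 mitochondrial genes with under 10% shared sequence. The IgG1 PC libraries lie below all others in each panel.

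The shift was present in each complex with subunits from both genomes. For complex I the pooled ratio was 2.23, 3.90 and 2.60 in IgG1 PC, 8.08, 6.22 and 6.65 in IgG1 iGC and 4.69, 4.22 and 4.74 in IgE PC. For complex IV it was 5.91, 9.42 and 6.47 in IgG1 PC, 15.3, 13.6 and 14.1 in IgG1 iGC and 12.9, 12.4 and 13.2 in IgE PC. IgG1 PC libraries lay below those of IgG1 iGC and of IgE PC in both complexes. Complex V showed the same order, with 0.57 to 1.04 in IgG1 PC, 2.00 to 2.59 in IgG1 iGC and 1.41 to 1.76 in IgE PC. For complex III, whose mitochondrial part is cytochrome b alone, the ratios of IgG1 PC (3.35 to 4.94) lay below those of IgG1 iGC (5.76 to 7.17) but overlapped those of IgE PC (4.71 to 5.02). The sides of the ratio moved differently: in complex I the summed nuclear CPM was 2098, 1651 and 1745 in IgG1 PC and 1442 to 1479.6 in IgG1 iGC. The pooled mitochondrial CPM was 4679, 6442 and 4533 in IgG1 PC and 9168 to 11653 in IgG1 iGC. The share of all counts, unlike CPM, was 0.619 to 0.688% for the nuclear genes in IgG1 PC and 0.623 to 0.657% in IgG1 iGC, so these shares overlapped. The pooled mitochondrial share was 1.65 to 2.31% against 3.68 to 4.28%, without overlap.

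In IgG1 PC against IgG1 iGC, 13 of the 13 mitochondrial genes were lower and 0 higher at an adjusted p under 0.05 over 15692 genes (edgeR's quasi-likelihood test). Their median log2 fold change was -0.95; among all genes tested 29.0% were lower and 30.1% higher, with a median of 0.013. As deposited, 10 were lower and 1 higher, and the falls numbered 9, 10 and 11 with total counts without immunoglobulin genes, total counts, and TPM. All 6 genes that share little sequence with annotated genes were among those lower.

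The 7 mitochondrial subunits of complex I belong to its proton-pumping membrane arm. mt-Nd1 had 992, 1255 and 903 CPM in IgG1 PC and 2392, 1978 and 2080 in IgG1 iGC, a log2 fold change of -1.03 (SE 0.11, edgeR adjusted p = 1.16e-06). mt-Nd2 had 598, 815 and 552 CPM against 1680.5, 1315 and 1429, a log2 fold change of -1.17 (SE 0.12, edgeR adjusted p = 1.27e-06). Neither gene's libraries overlapped between these groups. mt-Nd3, mt-Nd4, mt-Nd4l and mt-Nd5 changed by -0.95, -0.89, -1.01 and -0.92 (edgeR adjusted p = 9.49e-05, 1.03e-05, 2.23e-05 and 2.74e-05). With deposited counts, the mt-Nd4l call was lost in 5 of the 6 fits that left out 1 library, all but that without IgG1 PC replicate 2 (log2 fold changes of the 5 from -0.96 to -0.75). It was also lost with no filter on low counts (-0.94) and with total counts without immunoglobulin genes (-0.90). That of mt-Nd3 was lost without IgG1 PC replicate 1 (-0.95) or 2 (-0.90). mt-Nd6, the only messenger encoded on the opposite strand, had 64.1, 49.0 and 55.2 CPM in IgG1 iGC and 39.0, 48.5 and 30.2 in IgG1 PC. Its log2 fold change, -0.52 (SE 0.19, edgeR adjusted p = 0.0279), was the smallest of the complex I genes. Its libraries did not overlap. The call was lost in 4 of the 6 fits that left out 1 library, without IgG1 iGC replicates 1 and 3 and without IgG1 PC replicates 1 and 3 (edgeR adjusted p up to 0.121), and with no filter on low counts (edgeR adjusted p = 0.0823).

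mt-Cytb, the haem-carrying core of complex III, had 2666, 3119.6 and 2247 CPM in IgG1 PC and 3839, 3161 and 3231 in IgG1 iGC. This was the smallest fall of the 13 genes, -0.35 (SE 0.10, edgeR adjusted p = 0.00916), with no overlap between the groups. With only the groups compared in the fit it was not called (-0.33, edgeR adjusted p = 0.0713). It was not called without IgG1 iGC replicate 1 (edgeR adjusted p = 0.0559). The catalytic core subunits of complex IV fell together. mt-Co1 had 6074, 8073 and 6122 CPM in IgG1 PC against 11703, 10216 and 10827 in IgG1 iGC, a log2 fold change of -0.69 (SE 0.10, edgeR adjusted p = 4.24e-05). mt-Co2 and mt-Co3 changed by -0.71 (SE 0.10, edgeR adjusted p = 2e-05) and -0.99 (SE 0.12, edgeR adjusted p = 6.22e-06). As deposited, mt-Co2 instead had a log2 fold change of 0.46 (SE 0.40, edgeR adjusted p = 0.349) and mt-Co3 one of -2.49 (SE 1.28, edgeR adjusted p = 0.117), both not called.

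The complex V genes mt-Atp8 and mt-Atp6 encode subunits of its membrane-bound part and overlap each other on the same strand. mt-Atp8 had 74.5, 120.1 and 57.3 CPM in IgG1 PC and 654, 416 and 448 in IgG1 iGC, the largest fall of the 13 genes, -2.59 (SE 0.38, edgeR adjusted p = 9.16e-05). The other groups had 394, 216 and 454 CPM in IgE PC, 416, 474 and 208 in IgE iGC and 497, 544 and 508 in D6. The 3 IgG1 PC libraries were the lowest of all. mt-Atp6 had 1796, 2490.5 and 1401 CPM in IgG1 PC against 5176, 4285 and 4225 in IgG1 iGC when pooled. It fell with no overlap and a log2 fold change of -1.27 (SE 0.16, edgeR adjusted p = 7.07e-06). As deposited the same gene was higher, 272, 314 and 242 CPM against 183, 101 and 197, a log2 fold change of 0.79 (SE 0.21, edgeR adjusted p = 0.00507). Its share of the pair's counts was 15.2, 12.6 and 17.3% in IgG1 PC and 3.53, 2.35 and 4.67% in IgG1 iGC. The direction for mt-Atp6 and mt-Co2 therefore depended on the copy being counted with the gene.

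**Figure D3:**
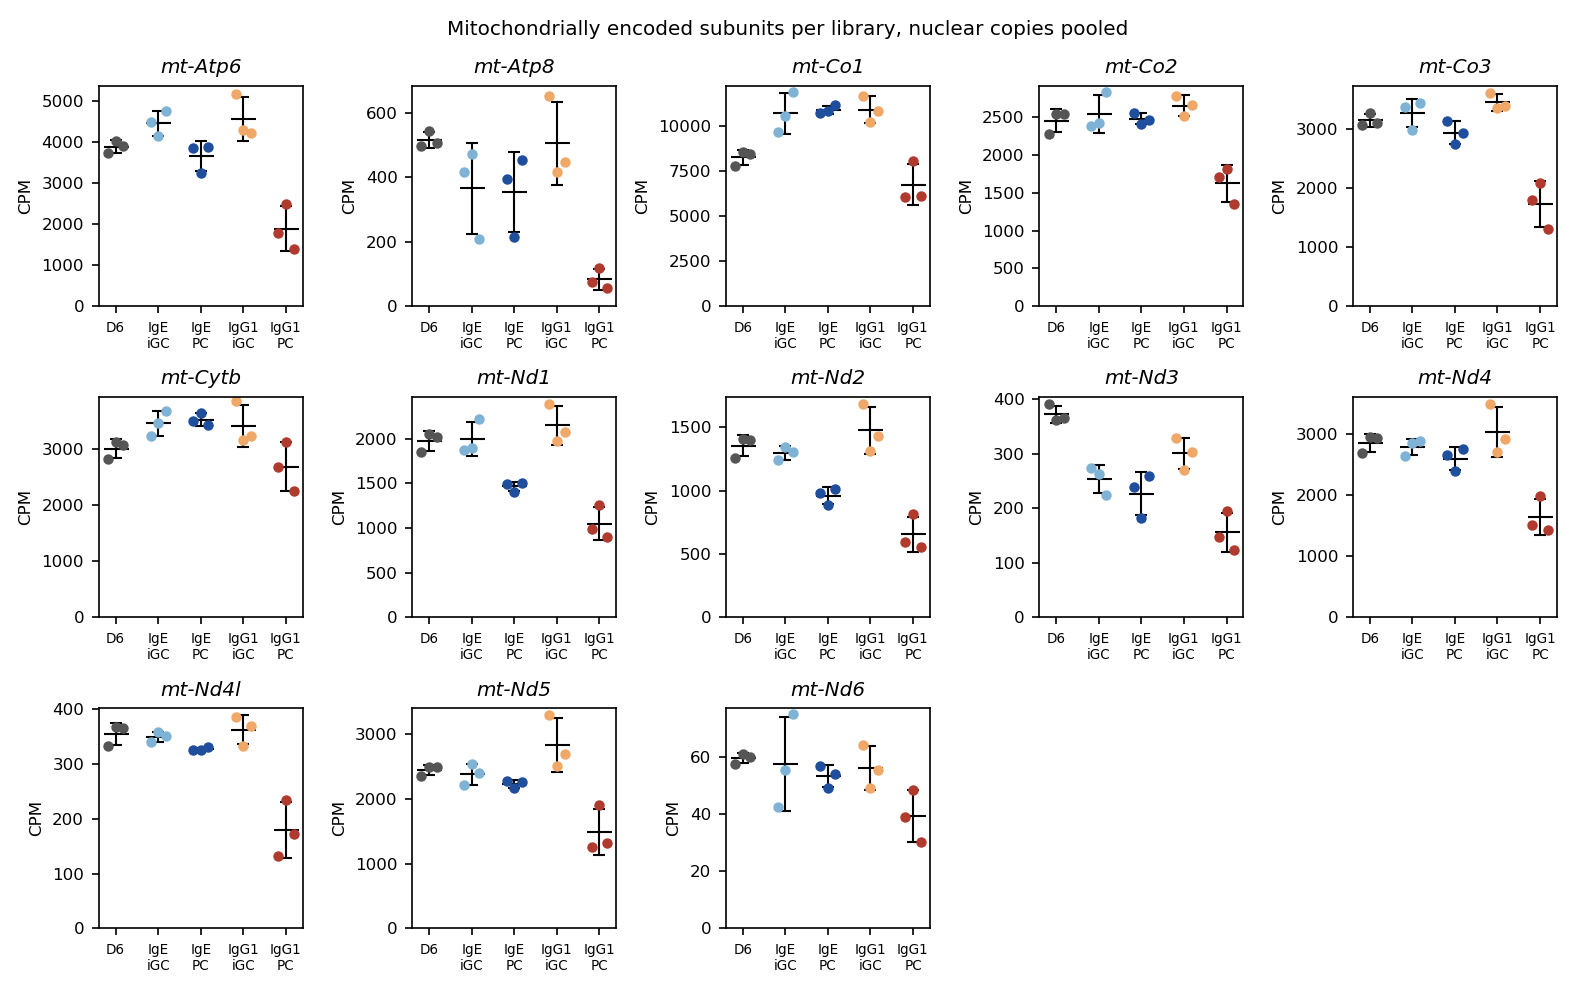
CPM of the 13 mitochondrial genes in the 5 groups, pooled with nuclear copies for 7 of them; coloured points are libraries, black marks group means with SD (n = 3), each panel on its own linear axis from 0. IgG1 PC has the lowest mean in all 13 panels; mt-Cytb and mt-Nd6 show the smallest separation, and mt-Atp6 and mt-Co2 would lie higher in IgG1 PC than in IgG1 iGC with deposited counts.

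In IgE PC against IgE iGC, 2 of the 13 mitochondrial genes were lower and 0 higher (deposited 2 and 1), beside 33.6% lower and 30.5% higher of all genes tested. The 2 were mt-Nd1, with 1488, 1409 and 1500.4 CPM in IgE PC and 1875, 1895 and 2222 in IgE iGC, and mt-Nd2, with 980.3, 886 and 1016 and 1240.3, 1344 and 1305. Their log2 fold changes were -0.45 (SE 0.11, edgeR adjusted p = 0.00197) and -0.43 (SE 0.12, edgeR adjusted p = 0.006). The other 11 ranged from -0.28 (mt-Atp6) to 0.027 (mt-Cytb) and were not called. The deposited counts gave 1 rise, mt-Atp6 at 1.07 (SE 0.21, edgeR adjusted p = 0.000439), which when pooled was -0.28 and not called. With total counts 7 and with TPM 7 mitochondrial genes were lower as deposited.

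Between plasma cells, 12 of the 13 mitochondrial genes were higher in IgE PC than in IgG1 PC and 0 lower. Their median log2 fold change was 0.61, beside 27.4% higher and 30.7% lower of all genes and a median of -0.052. As deposited 7 were higher, falling to 3 with total counts, 6 with total counts without immunoglobulin genes and 5 with TPM, with 0 lower under each. mt-Co1 had 10739, 10858 and 11160 CPM in IgE PC against 6074, 8073 and 6122 in IgG1 PC, with no overlap. The log2 fold change was 0.69 (SE 0.10, edgeR adjusted p = 4.18e-05). mt-Nd4 had 2661, 2395 and 2756 CPM against 1509, 1992 and 1435, a difference of 0.66 (SE 0.12, edgeR adjusted p = 0.000164) that also left no overlap. mt-Atp8 differed most, by 2.08 (SE 0.37, edgeR adjusted p = 0.000444), and mt-Nd6 was the gene not called, at 0.44 (SE 0.19, edgeR adjusted p = 0.056).

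An interaction term then compared the PC-to-iGC difference of IgE with that of IgG1, where a positive value means a smaller fall or larger rise in IgE. It was positive and called for 12 of the 13 mitochondrial genes (7 as deposited) and negative for 0, beside 19.8% positive and 23.1% negative of all genes. Values were 0.83 (SE 0.18, edgeR adjusted p = 0.00223) for mt-Nd5, 0.79 (SE 0.16, edgeR adjusted p = 0.00127) for mt-Nd4 and 2.54 (SE 0.51, edgeR adjusted p = 0.00178) for mt-Atp8. mt-Cytb lay at the limit, 0.38 (SE 0.15, edgeR adjusted p = 0.0499), its call being lost in 9 of the 12 fits that left out 1 library and with total counts, TPM, only the groups compared and the replicate block. mt-Nd6 was not called, at 0.42 (SE 0.26, edgeR adjusted p = 0.222). With total counts 5 deposited mitochondrial genes kept a called positive term.

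In the polyA-selected libraries the mitochondrial ribosomal RNAs, which are no members of the set, held 0.0971 to 0.115% of the counts in IgG1 PC, 0.169 to 0.189% in IgG1 iGC and 0.131 to 0.132% in IgE PC. IgG1 PC did not overlap the other groups.

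Of the 79 nuclear genes, 53 were higher and 6 lower in IgG1 PC than in IgG1 iGC (median log2 fold change 0.32). In IgE PC, 31 were higher and 12 lower than in IgE iGC (median 0.15; all genes -0.078). Called genes of either direction made up 59.1% and 64.1% of all genes in these comparisons. The split depends on scaling. In IgG1 it was 31 higher and 21 lower with total counts, 55 higher and 4 lower with total counts without immunoglobulin genes, and 5 higher and 47 lower with log2 TPM. In IgE it was 8 higher and 49 lower, 21 higher and 23 lower, and 6 higher and 64 lower, respectively. A rise below is therefore a rise relative to the bulk of genes, and genes whose direction held under every scaling are named as such.

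By complex, IgG1 PC had 23 higher and 3 lower of 36 for complex I, and 3 higher and 0 lower of 4 for complex II. It had 6 higher and 1 lower of 8 for complex III, 11 higher and 1 lower of 14 for complex IV and 10 higher and 1 lower of 17 for complex V. In IgE PC the counts were 14 higher and 5 lower, 1 higher and 0 lower, 4 higher and 0 lower, 6 higher and 3 lower and 6 higher and 4 lower in the same order. Scaling by total counts turned complex I to 13 higher and 10 lower in IgG1 and 4 higher and 21 lower in IgE. Complex V turned to 6 higher and 6 lower and 1 higher and 13 lower. No complex had a nuclear set moving wholly one way under all scalings.

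**Figure D4:**
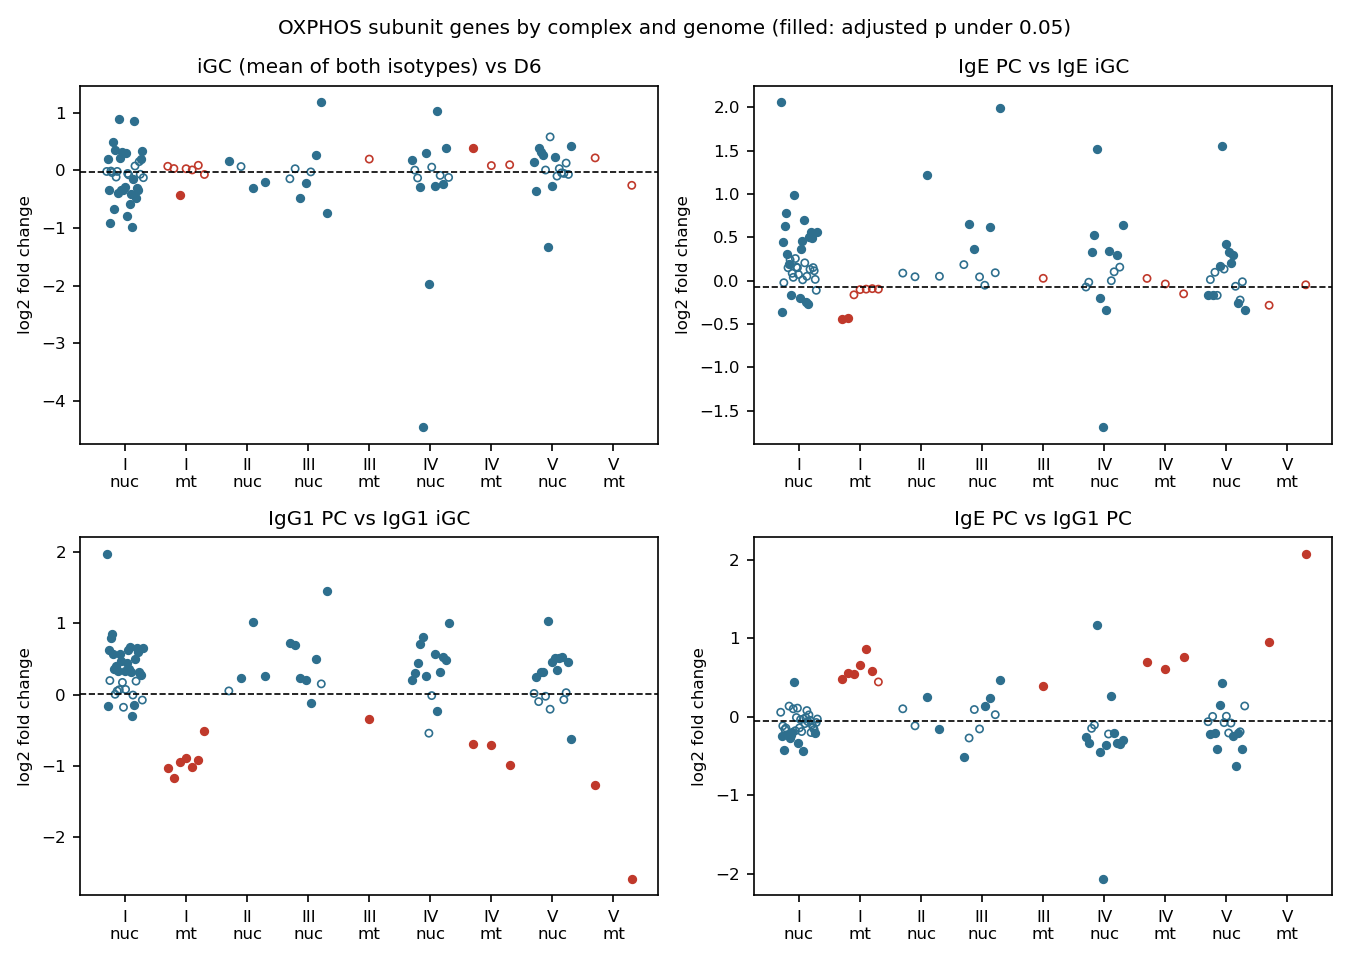
Log2 fold changes of the 92 genes by complex and genome in 4 comparisons (mitochondrial genes pooled with nuclear copies); filled points have an edgeR adjusted p under 0.05, open points do not, and the dashed line is the median of all genes tested. Mitochondrial genes mostly lie below nuclear ones in IgG1 PC against IgG1 iGC and above them in IgE PC against IgG1 PC; under total-count or TPM scaling many nuclear rises turn to falls.

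Complex I held the largest nuclear rise, Ndufa1, an accessory subunit encoded on the X chromosome. It had 90.5, 88.1 and 94.4 CPM in IgE PC and 21.5, 22.8 and 21.1 in IgE iGC, 116, 71.9 and 75.5 in IgG1 PC and 22.2, 21.9 and 22.4 in IgG1 iGC. Both plasma cell groups lay wholly above both iGC groups. The log2 fold changes were 2.06 (SE 0.14, edgeR adjusted p = 2.56e-09) in IgE and 1.98 (SE 0.13, edgeR adjusted p = 9.69e-09) in IgG1, and the rise held under every scaling. The difference between the isotypes at the PC stage was not called (log2 fold change 0.056, SE 0.13, edgeR adjusted p = 0.726). Ndufa10, another accessory subunit, fell in both, from 81.5, 81.4 and 78.6 to 60.7, 64.9 and 62.5 CPM in IgE (log2 fold change -0.36, SE 0.047, edgeR adjusted p = 4.97e-06). In IgG1 it fell by 0.17 on the log2 scale (edgeR adjusted p = 0.00607), also under every scaling, but was not called with only the groups compared (-0.15, edgeR adjusted p = 0.0952). Ndufc2, an accessory subunit, changed by -0.30 (SE 0.061, edgeR adjusted p = 0.00065) in IgG1 PC.

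Complex II, succinate dehydrogenase, is shared with the citrate cycle; Sdha and Sdhb form its catalytic part and Sdhc and Sdhd anchor it in the membrane. Sdhc had 106, 106 and 107 CPM in IgE PC and 48.9, 45.0 and 42.8 in IgE iGC, 106, 77.3 and 84.4 in IgG1 PC and 42.1, 44.8 and 45.2 in IgG1 iGC. It rose by 1.22 (SE 0.09, edgeR adjusted p = 7.33e-09) in IgE and 1.02 (SE 0.089, edgeR adjusted p = 1.45e-07) in IgG1 without overlap, and under every scaling. Log2 fold changes in IgE and IgG1 were 0.088 and 0.052 for Sdha, 0.045 and 0.23 for Sdhb, and 0.051 and 0.26 for Sdhd. Of these, Sdhb and Sdhd were called in IgG1 alone (edgeR adjusted p = 0.00666 and 0.000445) and Sdha in neither. With TPM all 3 turned to falls in both isotypes, as they did in IgE with total counts; Sdha and Sdhb were also below 0 in IgG1 with total counts.

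In complex III the small subunit Uqcrq rose most. It had 120.3, 123 and 129 CPM in IgE PC, 113, 72.5 and 84.2 in IgG1 PC, 32.6, 31.5 and 29.1 in IgE iGC and 33.0, 32.2 and 32.9 in IgG1 iGC. The log2 fold change was 1.99 (SE 0.12, edgeR adjusted p = 5.7e-10) in IgE and 1.45 (SE 0.11, edgeR adjusted p = 5e-08) in IgG1, a rise under every scaling. IgE PC exceeded IgG1 PC by 0.47 (SE 0.11, edgeR adjusted p = 0.00194). The interaction was 0.54 (SE 0.16, edgeR adjusted p = 0.0136). It lost its call with total counts (0.31, edgeR adjusted p = 0.0668) and with total counts without immunoglobulin genes (0.35, edgeR adjusted p = 0.0782). Uqcr10, another small subunit, went the other way between isotypes. It had 62.0, 45.7 and 50.7 CPM in IgG1 PC and 37.4, 37.7 and 35.1 in IgE PC, beside 31.0 to 33.2 and 29.9 to 35.6 in the iGC groups. It rose in IgG1 (log2 fold change 0.73, SE 0.092, edgeR adjusted p = 8e-06) and was not called in IgE (log2 fold change 0.19, SE 0.094, edgeR adjusted p = 0.0973). The interaction was -0.54 (SE 0.13, edgeR adjusted p = 0.00393), negative and called under every scaling.

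Complex IV includes subunits with tissue-specific isoforms. Cox6a1, the widespread form, changed by 0.53 (SE 0.10, edgeR adjusted p = 0.000193) in IgE and 0.71 (SE 0.10, edgeR adjusted p = 1.75e-05) in IgG1. Ndufa4 changed by 0.65 (SE 0.11, edgeR adjusted p = 0.000117) and 1.01 (SE 0.11, edgeR adjusted p = 2.2e-06). With TPM, Cox6a1 was -0.20 and Ndufa4 -0.082 in IgE. With total counts neither was called in IgE (0.059 and 0.18), and with TPM Cox6a1 was not called in IgG1 (0.088). Cox7a2 changed by 0.34 and 0.57 (edgeR adjusted p = 0.00795 and 0.000185), turning to -0.35 and -0.10 with TPM. Cox6b1, a subunit on the cytochrome c side, had 134, 104 and 112 CPM in IgG1 PC, 103, 97.0 and 92.6 in IgG1 iGC, 80.6, 87.1 and 87.4 in IgE PC and 99.2, 99.1 and 95.0 in IgE iGC. It rose in IgG1 by 0.26 (SE 0.076, edgeR adjusted p = 0.00877), but was -0.35 with TPM. The rise was not called with total counts (0.02, edgeR adjusted p = 0.791) or with only the groups compared (edgeR adjusted p = 0.0582). It fell in IgE (log2 fold change -0.20, SE 0.077, edgeR adjusted p = 0.0312). The interaction of -0.46 (SE 0.11, edgeR adjusted p = 0.00311) was called under every scaling. The fall in IgE was not called in 4 of the 6 fits that left out 1 library, without IgE iGC replicates 1 and 2 and without IgE PC replicates 1 and 3, with values of -0.19, -0.19, -0.17 and -0.21. Cox4i1, a core-binding subunit, was -0.073 in IgE (not called, edgeR adjusted p = 0.408) and 0.20 in IgG1 (edgeR adjusted p = 0.0278; -0.46 with TPM). The IgG1 value was not called with only the groups compared (0.22) or with no filter (0.19), nor without IgG1 iGC replicate 1 (0.18) or 2 (0.20) or without IgG1 PC replicate 1 (0.10). Cox6c fell by 0.33 on the log2 scale in IgE (edgeR adjusted p = 0.00108).

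In complex V, Atp5g1 encodes one of the precursors of subunit c, which forms the rotating ring. Its level was 86.1, 93.9 and 92.0 CPM in IgE PC against 34.0, 30.9 and 27.1 in IgE iGC, and 78.8, 58.7 and 64.4 in IgG1 PC against 34.8, 32.5 and 30.7 in IgG1 iGC. The rises of 1.56 (SE 0.10, edgeR adjusted p = 1.25e-09) and 1.04 (SE 0.10, edgeR adjusted p = 3.04e-07) left no overlap and held under every scaling. Atp5k, the small subunit e, had 45.1, 33.2 and 35.2 CPM in IgG1 PC and 26.4, 26.4 and 25.3 in IgG1 iGC, but 23.4, 25.3 and 24.3 in IgE PC and 27.0, 26.0 and 22.9 in IgE iGC. The log2 fold change was 0.53 (SE 0.094, edgeR adjusted p = 0.000174) in IgG1 and -0.064 (SE 0.10, edgeR adjusted p = 0.579) in IgE. The interaction was -0.60 (SE 0.13, edgeR adjusted p = 0.00223). Atp5e, the epsilon subunit, showed an interaction of -0.49 (SE 0.14, edgeR adjusted p = 0.0123). The Atp5k interaction was called under every scaling, and so was that of Atp5e.

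**Figure D5:**
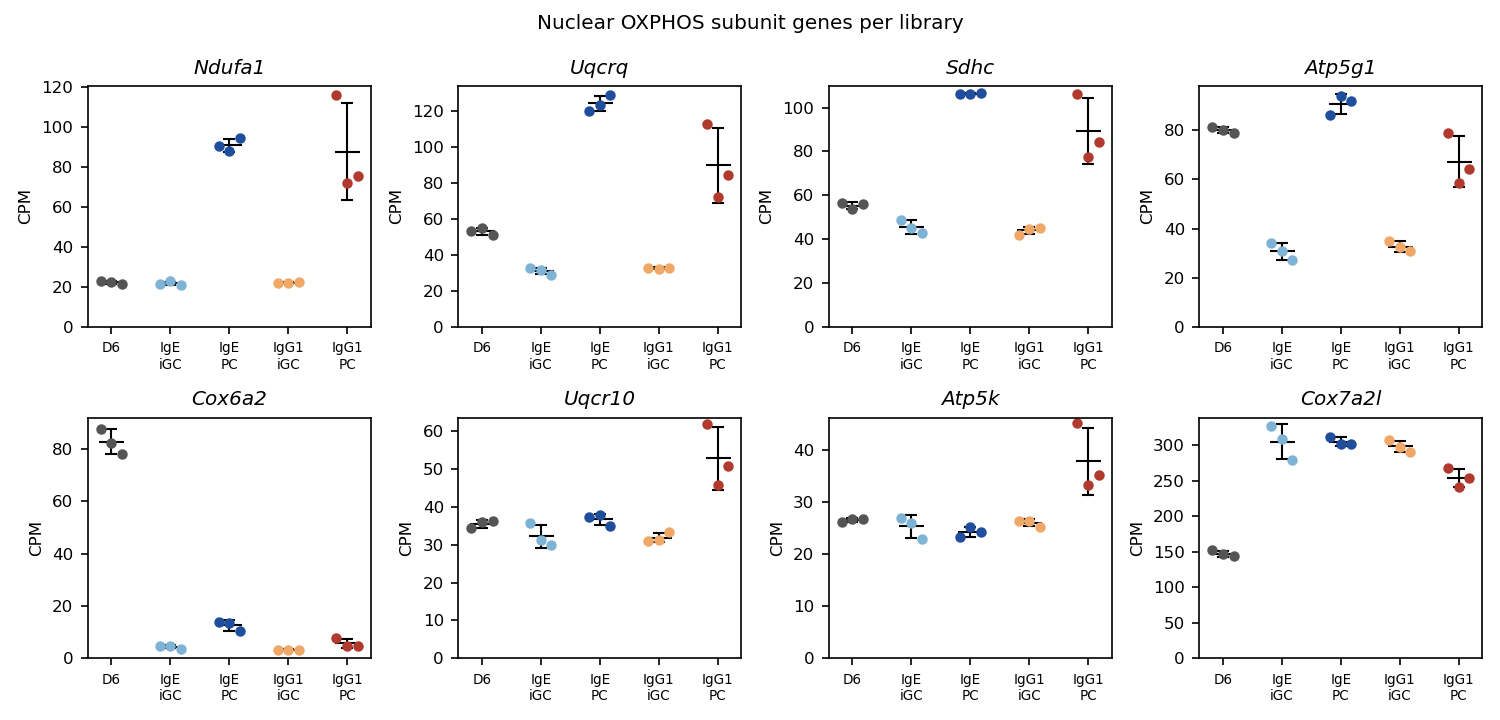
CPM of 8 nuclear genes in the 5 groups; coloured points are libraries, black marks group means with SD (n = 3), each panel on its own linear axis from 0. Ndufa1, Uqcrq, Sdhc and Atp5g1 are higher in both PC groups than in the iGC groups, Uqcr10 and Atp5k are highest in IgG1 PC, and Cox6a2 is highest in D6.

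Between plasma cells, 9 of the 79 nuclear genes were higher and 27 lower in IgE PC than in IgG1 PC. Of all genes, 58.1% were called (27.4% higher and 30.7% lower). The median log2 fold change was -0.15 for the nuclear genes and -0.052 for all genes. This gap was not kept without IgG1 PC replicate 1, with 14 higher and 21 lower (median -0.035, all genes -0.043). Without IgG1 PC replicate 2 there were 7 higher and 41 lower (median -0.21, all genes -0.058). The mitochondrial genes leaned the other way. The nuclear split moved with the scaling, and so did the median of all genes. It was 3 higher and 64 lower with total counts (nuclear median -0.39, all genes -0.30). Without immunoglobulin genes it was 4 higher and 61 lower (-0.35 and -0.25), and with TPM 4 higher and 52 lower (-0.29 and -0.11). DESeq2 gave 13 higher and 19 lower. By complex the counts were 1 higher and 9 lower in complex I, 1 higher and 1 lower in II, 3 higher and 1 lower in III, 2 higher and 9 lower in IV and 2 higher and 7 lower in V. The largest falls in IgE PC that met the naming rule were Atp5k (log2 fold change -0.63, SE 0.095, edgeR adjusted p = 3.86e-05), Uqcr10 (log2 fold change -0.52, SE 0.092, edgeR adjusted p = 0.000199) and Cox6b1 (log2 fold change -0.45, SE 0.076, edgeR adjusted p = 0.00012). The largest rises were Cox6a2 (log2 fold change 1.17, SE 0.17, edgeR adjusted p = 2.45e-05), Uqcrq and Ndufb11. Ndufb11, an accessory subunit of complex I, had 116, 119 and 115 CPM in IgE PC and 104, 76.4 and 77.0 in IgG1 PC (log2 fold change 0.45, SE 0.09, edgeR adjusted p = 0.000559). These 6 kept their direction and call under every scaling, whereas Sdhc (0.26) and Cox7a2l (0.26) stayed above 0 but lost their calls with total counts, without immunoglobulin genes and with TPM. Sdhc lost its call also with only the groups compared (0.25) and without IgG1 PC replicate 2 (0.17) or 3 (0.22). The interaction term was called positive for 5 and negative for 16 of the 79 nuclear genes, beside 19.8% and 23.1% of all genes. Its median was -0.17 for the nuclear genes and -0.062 for all genes. Other splits were 0 higher and 53 lower with total counts (all-gene median -0.30) and 0 higher and 47 lower without immunoglobulin genes (-0.25). They were 4 higher and 36 lower with TPM (-0.099) and 6 higher and 11 lower with DESeq2 (-0.024). Without IgG1 PC replicate 1 there were 11 higher and 13 lower (nuclear median -0.049, all genes -0.054). Without IgG1 PC replicate 2 there were 3 higher and 30 lower (-0.22 and -0.074).

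Among iGC cells, 0 of the 92 genes differed between IgE and IgG1 at an adjusted p under 0.05 by edgeR, deposited or pooled, beside 3.87% of all genes called (1.99% higher and 1.88% lower). Of these genes 4, all nuclear, had an unadjusted p under 0.05, and DESeq2 called 1. The lowest adjusted p belonged to Cox6b2, the testis-type isoform of Cox6b, with 0.523, 0.555 and 0.723 CPM in IgE iGC and 0.834, 1.23 and 1.27 in IgG1 iGC (log2 fold change -0.92, SE 0.27, edgeR adjusted p = 0.0785). The median log2 fold change was 0.007 for the nuclear and -0.079 for the mitochondrial genes, and leaving out any 1 library also gave 0 calls.

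Relative to the day 6 bulk culture, the iGC groups together had 23 nuclear genes higher and 28 lower (median -0.055), beside 72.3% of all genes called (34.3% higher and 38.0% lower). They had 1 mitochondrial gene higher and 1 lower. The nuclear split was 21 higher and 34 lower with total counts and 14 higher and 45 lower with TPM. The mitochondrial genes called were mt-Co1 (log2 fold change 0.39, SE 0.091, edgeR adjusted p = 0.00133) and mt-Nd3 (log2 fold change -0.43, SE 0.13, edgeR adjusted p = 0.0073). Among nuclear genes Uqcrh, the hinge subunit of complex III, had 64.1, 59.7 and 59.5 CPM in D6, 149, 139.9 and 138 in IgE iGC and 135, 134 and 134 in IgG1 iGC. It rose by 1.18 (SE 0.06, edgeR adjusted p = 9.6e-11). Cox7a2l, which joins complexes III and IV into supercomplexes, rose by 1.03 (SE 0.055, edgeR adjusted p = 1.69e-10) and Ndufb10 by 0.88 (SE 0.056, edgeR adjusted p = 1.26e-09). Ndufc2 had 84.4, 83.1 and 82.4 CPM in D6 and fell by 0.99 on the log2 scale (SE 0.05, edgeR adjusted p = 1.03e-10). The D6 libraries also held the highest feeder-type marker sums, 302 to 495 CPM, and their part in these differences was not tested.

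Against the same D6 libraries, which are shared by the comparisons, IgE PC had 31 nuclear genes higher and 16 lower (median 0.13), beside 76.4% of all genes called (36.9% higher and 39.5% lower). IgG1 PC had 48 higher and 12 lower (median 0.31), beside 71.9% of all genes called (35.9% higher and 36.0% lower). For IgE PC the split was 9 higher and 56 lower with total counts, 21 higher and 30 lower without immunoglobulin genes and 5 higher and 68 lower with TPM. For IgG1 PC it was 27 higher and 26 lower with total counts and 4 higher and 60 lower with TPM. Mitochondrial genes numbered 1 higher and 3 lower in IgE PC, and 0 higher and 12 lower in IgG1 PC. Log2 fold changes in IgG1 PC and IgE PC were 1.97 and 2.03 for Ndufa1, 1.29 and 1.31 for Uqcrh, and 1.05 and 0.82 for Ndufa3, an accessory subunit of complex I (largest edgeR adjusted p 4.38e-06). Ndufa12, an accessory subunit of complex I, had 48.6 to 49.7 CPM in D6, 23.3 to 24.9 in IgE PC and 30.2 to 35.7 in IgG1 PC. Ndufc2 and Ndufa12 fell in both, with log2 fold changes of -1.27 and -1.03 in IgE PC and -1.26 and -0.61 in IgG1 PC (largest edgeR adjusted p 9.34e-06).

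Isoform usage, expressed as a share of length-corrected TPM, differed between the groups. D6 differs from the sorted groups in day, sorting, feeder removal and feeder-type marker sums (302 to 495 CPM in D6). The parts of these cannot be told apart. Cox6a2, the heart and skeletal muscle form of Cox6a, held 45.9, 44.8 and 44.3% of Cox6a1 plus Cox6a2 in the D6 libraries. It held 4.49 to 5.12% in IgE iGC, 8.05 to 10.2% in IgE PC, 3.68 to 4.01% in IgG1 iGC and 3.61 to 4.71% in IgG1 PC. In CPM it was 87.8, 82.3 and 78.2 in D6, 14.0, 13.7 and 10.3 in IgE PC, 7.80, 4.69 and 4.77 in IgG1 PC. The iGC groups had 4.75, 4.67 and 3.67 in IgE iGC and 3.31, 3.01 and 3.30 in IgG1 iGC. D6 lay above all other groups, and iGC differed from D6 by -4.45 (SE 0.13, edgeR adjusted p = 5.24e-13). From iGC to PC the gene rose by 1.52 (SE 0.17, edgeR adjusted p = 1.49e-06) in IgE and 0.81 (SE 0.18, edgeR adjusted p = 0.00147) in IgG1. The rise in IgG1 was not called with TPM (0.18, limma adjusted p = 0.261). Cox6a2 overlaps Itgad on the other strand. Reads were strand-specific per the labels, but the strand setting of the counting is not given in the sources used here. The same holds for Cox4i1 (Emc8), Sdha (Gm16125), Uqcrh (Gm12854), Ndufb11 (Rbm10), Cox6c (Vps13b), Ndufa3 (Tfpt) and mt-Nd6 (mt-Nd5).

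Atp5g1 held 42.1, 42.2 and 42.0% of the 3 subunit c genes in D6, 41.4, 42.9 and 41.9% in IgE PC and 36.1, 33.2 and 35.6% in IgG1 PC. It held 23.7 to 24.6% in IgE iGC and 24.6 to 28.0% in IgG1 iGC. The iGC groups were thus below D6 and both PC groups without overlap, and IgE PC lay above IgG1 PC; Atp5g3 made up most of the rest. Atp5g1 was lower in iGC than in D6 by 1.33 on the log2 scale (SE 0.08, edgeR adjusted p = 7.69e-10), and higher in PC than in iGC as given above. Cox6b2 held 3.67 to 5.23% of Cox6b1 plus Cox6b2 in D6, 0.986 to 1.63% in IgG1 iGC, 0.617 to 0.903% in IgE iGC, 0.633 to 0.945% in IgG1 PC and 0.208 to 0.46% in IgE PC. It was lower in IgE PC (0.145, 0.253 and 0.139 CPM) than in IgG1 PC (0.7, 0.714 and 0.863 CPM), with a log2 fold change of -2.07 (SE 0.32, edgeR adjusted p = 6.09e-05). It had the lowest mean TPM of the 92 genes.

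Promoters of nuclear oxidative phosphorylation genes are known for sites of nuclear respiratory factor 1 (NRF1), of the ETS factor GABP and of YY1. RefSeq promoter windows (GRCm38.p6, 250 bases before to 50 after the start) were matched by symbol, Ensembl identifier or synonym for 65 of the 79 nuclear genes, in 70 windows. They were searched on both strands for GCGCATGCG (NRF1), CCGGAAG (ETS) and AAGATGGC (YY1). A match in any window was present for 8 genes (12.31%, against 1.95% of all 27025 genes with promoters), 16 (24.62% against 9.93%) and 10 (15.38% against 3.19%), in the order NRF1, ETS and YY1. Any of the 3 was found for 29 (44.62% against 14.06%). With the first window of each gene only, any of the 3 was found in 43.08% against 12.98%. The shares are descriptions of these windows without a test. The promoters of Atp5k (chr5:108434350-108434649, minus strand) and Cox6a1 (chr5:115348909-115349208, minus strand), which both hold an NRF1 and an ETS match, and of Ndufa1 (chrX:37191189-37191488, minus strand), the gene with the largest rise and no match, are shown. Capitals mark the matches, GCGCATGCGC being overlapping NRF1 matches on both strands and CTTCCGG an ETS match on the reverse strand.
Atp5k: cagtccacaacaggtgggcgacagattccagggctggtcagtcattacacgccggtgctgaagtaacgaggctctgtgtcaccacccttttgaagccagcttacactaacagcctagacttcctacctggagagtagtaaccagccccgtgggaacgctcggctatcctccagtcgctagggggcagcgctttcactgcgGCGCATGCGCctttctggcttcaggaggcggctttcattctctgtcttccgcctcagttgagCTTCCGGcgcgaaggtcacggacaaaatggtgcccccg
Cox6a1: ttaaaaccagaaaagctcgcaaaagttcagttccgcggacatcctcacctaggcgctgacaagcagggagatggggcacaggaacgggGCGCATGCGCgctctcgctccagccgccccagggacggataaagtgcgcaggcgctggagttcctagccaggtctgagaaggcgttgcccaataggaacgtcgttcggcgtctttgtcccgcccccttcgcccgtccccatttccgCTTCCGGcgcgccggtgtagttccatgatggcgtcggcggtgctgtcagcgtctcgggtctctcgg
Ndufa1: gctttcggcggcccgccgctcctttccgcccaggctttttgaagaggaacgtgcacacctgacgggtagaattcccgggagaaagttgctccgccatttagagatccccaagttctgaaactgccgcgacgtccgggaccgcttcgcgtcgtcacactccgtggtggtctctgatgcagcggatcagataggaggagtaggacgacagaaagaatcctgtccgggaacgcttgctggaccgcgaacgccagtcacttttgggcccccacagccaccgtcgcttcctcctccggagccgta
The annotated start of Ndufa1 (GENCODE M21, chrX:37191163) lies outside its window, on the downstream side. That these letters are absent from the Ndufa1 window says nothing about the factors. Uqcrq, Sdhc and Cox6a2 had no entry in the table.

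Genes that make, regulate and use the mitochondrial RNAs were read from separate lists, each with its percent of genes called. The percentages of all genes called, in the order higher and lower, stand beside them; a list near these is not set apart by its count. For genes of mitochondrial DNA and RNA, IgG1 PC against IgG1 iGC gave 6 higher and 18 lower of 38 (15.8% and 47.4%), beside 30.1% and 29.0% of all genes. IgE PC against IgE iGC gave 7 higher and 18 lower of 38 (18.4% and 47.4%), beside 30.5% and 33.6%. The falls also outnumbered the rises under each scaling tried. Rexo2, an exonuclease that degrades short RNAs in mitochondria, had 198, 202 and 218 CPM in IgE PC and 39.0, 39.0 and 35.5 in IgE iGC. It had 146, 119 and 112 in IgG1 PC and 33.0, 36.3 and 34.4 in IgG1 iGC. Its rises were 2.44 (SE 0.086, edgeR adjusted p = 1.27e-12) in IgE and 1.86 (SE 0.084, edgeR adjusted p = 5.5e-11) in IgG1. Tfb1m, a methyltransferase of the mitochondrial ribosomal RNA, rose by 1.41 (SE 0.10, edgeR adjusted p = 7.21e-09) and 0.76 (SE 0.10, edgeR adjusted p = 1.49e-05). Lrpprc, which stabilises mitochondrial messenger RNAs, had 49.0, 47.7 and 45.3 CPM in IgE PC and 99.4, 98.8 and 99.0 in IgE iGC. It had 65.0, 75.3 and 66.0 in IgG1 PC and 109.6, 112 and 112 in IgG1 iGC. It was lower in both PC groups than in iGC, with log2 fold changes of -1.07 (SE 0.056, edgeR adjusted p = 1.27e-10) in IgE and -0.69 (SE 0.055, edgeR adjusted p = 4.86e-08) in IgG1. It was also lower in IgE PC than in IgG1 PC (log2 fold change -0.54, SE 0.056, edgeR adjusted p = 9.74e-07). Between plasma cells the list gave 10 higher and 11 lower of 38 (26.3% and 28.9%), beside 27.4% and 30.7% of all genes, turning to 3 higher and 20 lower with total counts. Top1mt, the mitochondrial topoisomerase, differed by -1.18 (SE 0.14, edgeR adjusted p = 3.47e-06).

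Mitochondrial ribosomal protein genes serve translation of the 13 mitochondrially encoded proteins. They numbered 4 higher and 37 lower of 78 (5.13% and 47.4%) in IgE PC against IgG1 PC, beside 27.4% and 30.7% of all genes. The lean was kept under every scaling, from 0 higher and 65 lower with total counts to 7 higher and 33 lower with DESeq2. Against iGC they numbered 15 higher and 30 lower of 78 (19.2% and 38.5%) in IgE, beside 30.5% and 33.6% of all genes. In IgG1 they numbered 23 higher and 14 lower of 78 (29.5% and 17.9%), beside 30.1% and 29.0%. The latter turned to 13 higher and 45 lower with total counts and 3 higher and 63 lower with TPM. Mrps6 had 2.84, 2.75 and 2.13 CPM in IgE PC and 7.66, 6.74 and 6.93 in IgG1 PC (log2 fold change -1.45, SE 0.13, edgeR adjusted p = 1.61e-07). Mrpl49 differed by -0.79 (SE 0.079, edgeR adjusted p = 6.64e-07). Import and outer membrane genes gave 4 higher and 17 lower of 27 (14.8% and 63%) between the plasma cells, again leaning lower under every scaling. Vdac1, the outer membrane channel, was at -0.58 (SE 0.044, edgeR adjusted p = 3.97e-08). Hspa9, the matrix chaperone that drives import, was at 0.66 (SE 0.056, edgeR adjusted p = 1.13e-07). Against iGC they gave 7 higher and 17 lower of 27 (25.9% and 63%) in IgE and 7 higher and 14 lower of 27 (25.9% and 51.9%) in IgG1, beside the same shares of all genes as above. Timm21, an import subunit, rose by 1.53 (SE 0.071, edgeR adjusted p = 2.79e-11) in IgE and 0.74 (SE 0.07, edgeR adjusted p = 3.52e-07) in IgG1.

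Subunits, carriers and coenzyme Q genes outside the pattern gave 2 higher and 16 lower of 24 (8.33% and 66.7%) in IgE PC against IgG1 PC. They gave 4 higher and 11 lower of 24 (16.7% and 45.8%) in IgE PC against IgE iGC and 7 higher and 7 lower of 24 (29.2% and 29.2%) in IgG1 PC against IgG1 iGC, where total counts gave 4 higher and 9 lower. All genes had 27.4% higher and 30.7% lower, 30.5% higher and 33.6% lower and 30.1% higher and 29.0% lower in these 3 comparisons. Slc25a4, an ADP/ATP carrier, had 51.1, 45.4 and 46.3 CPM in IgE PC and 87.1, 89.6 and 92.3 in IgG1 PC (log2 fold change -0.91, SE 0.062, edgeR adjusted p = 1.22e-08). Coq8a, a kinase-like protein of coenzyme Q synthesis, differed by -1.04 (SE 0.074, edgeR adjusted p = 1.95e-08). Etfdh, which passes electrons from fatty acid oxidation to coenzyme Q, was higher in IgE PC than in IgG1 PC by 0.54 (SE 0.053, edgeR adjusted p = 6.02e-07). It was higher in PC than in iGC by 1.10 (SE 0.054, edgeR adjusted p = 6.04e-11) in IgE and 0.64 (SE 0.054, edgeR adjusted p = 9.65e-08) in IgG1. Assembly factors gave 13 higher and 14 lower of 56 (23.2% and 25%) between plasma cells (8 higher and 29 lower with total counts). They gave 15 higher and 19 lower of 56 (26.8% and 33.9%) in IgE and 10 higher and 19 lower of 56 (17.9% and 33.9%) in IgG1 against iGC, beside the shares of all genes just given. Ttc19, a complex III assembly factor, had 16.3, 14.4 and 16.1 CPM in IgE PC, 7.24, 6.97 and 5.83 in IgG1 PC and 4.39, 4.36 and 4.60 in IgE iGC. IgE PC exceeded IgG1 PC by 1.23 (SE 0.088, edgeR adjusted p = 2.08e-08) and IgE iGC by 1.81 (SE 0.093, edgeR adjusted p = 9.06e-11). Sdhaf2, which helps insert the flavin into Sdha, fell from iGC to PC by 1.23 and 0.79 on the log2 scale in IgE and IgG1 (edgeR adjusted p = 2e-11 and 7.63e-09).

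Citrate cycle genes, which supply NADH and succinate, gave 8 higher and 8 lower of 18 (44.4% and 44.4%) in IgE and 6 higher and 6 lower of 18 (33.3% and 33.3%) in IgG1 against iGC. All genes had 30.5% higher and 33.6% lower in IgE and 30.1% higher and 29.0% lower in IgG1. With total counts the list became 2 higher and 14 lower and 3 higher and 12 lower. Between plasma cells there were 4 higher and 7 lower of 18 (22.2% and 38.9%), beside 27.4% higher and 30.7% lower of all genes. Idh2 rose by 1.18 (SE 0.087, edgeR adjusted p = 7.61e-09) in IgE and 0.99 (SE 0.086, edgeR adjusted p = 1.21e-07) in IgG1. Idh3a, a subunit of the NAD-dependent isocitrate dehydrogenase, fell in IgE by 1.29 on the log2 scale (edgeR adjusted p = 1.75e-09). Of 15 nuclear regulators 14 were tested, with 6 higher and 2 lower in IgE PC than in IgG1 PC (42.9% and 14.3%), and 3 higher and 3 lower with total counts. Against iGC the list gave 3 higher and 5 lower (21.4% and 35.7%) in IgE. In IgG1 it gave 2 higher and 8 lower (14.3% and 57.1%), and the shares of all genes are those given above. Yy1 had 151, 138 and 164 CPM in IgE PC and 83.0, 100.4 and 89.8 in IgG1 PC (log2 fold change 0.73, SE 0.071, edgeR adjusted p = 4.93e-07). It had 137, 137 and 132 CPM in IgE iGC and 129, 126 and 135 in IgG1 iGC. The fall from IgG1 iGC to IgG1 PC was called (log2 fold change -0.52, SE 0.071, edgeR adjusted p = 1.64e-05). Between plasma cells Gabpa differed by 0.69 (SE 0.089, edgeR adjusted p = 8.73e-06). Myc, a factor that promotes mitochondrial biogenesis, and Ppargc1b, a coactivator of respiratory genes, were lower in IgE PC, with log2 fold changes of -0.71 (SE 0.086, edgeR adjusted p = 4.43e-06) and -0.98 (SE 0.15, edgeR adjusted p = 4.19e-05).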

How the data were processed

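PolyA-selected RNA from 15 libraries was sequenced as 76-base single, strand-specific reads (KAPA mRNA HyperPrep), per the labels' protocols. The authors deposited expected counts and TPM per gene; the submitters' processing notes name cutadapt 1.9.1, STAR 2.5.2a, RSEM 1.3.0, DESeq2 1.12.3 and GRCm38, and the annotation release is not given in the sources used here. GENCODE M21 supplied coordinates and sequences. Expected counts were rounded, filtered (filterByExpr, minimum count 10, minimum total 15; 15692 genes kept) and fitted in R 4.3.3 with edgeR 4.0.16 (TMM, quasi-likelihood test, 1 mean per group over all 15 libraries, 10 residual degrees of freedom, common dispersion 0.0109), with p-values adjusted by Benjamini-Hochberg over all genes and called under 0.05. The fit was also run on simulated counts with balanced rises and falls in IgE PC only and the common dispersion for every gene. As no shift in immunoglobulin counts was simulated, this run cannot decide between the scalings. Alternatives were DESeq2 1.42.0, total counts with and without immunoglobulin genes, TMM without mitochondrial genes, no filter, only the groups compared, a replicate block, limma 3.58.1 on log2(TPM + 1) and leaving out each library. Every mitochondrial gene, complex II, the isoform pairs and, per comparison, the 3 largest called rises and 3 largest called falls with at least 10 CPM and no overlap of libraries were named, with 2 genes a direction from each pathway list; Atp5e, Uqcr10 and others so named in 1 comparison are also given in others, and 1 gene named by this rule is not reported here. The genes and lists were chosen with earlier results of these data known. Pooling with the copy that shares most 76-base sequences on the same strand, the 10% limit on sharing, the placing of Ndufa4, promoter matches in any window, counts of lists and complexes under other scalings, leaving out libraries for named genes and other forms of the ratio were chosen after seeing the data; leaving out libraries used deposited counts. Figures were drawn with matplotlib 3.10.9.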

Additional observations from a re-analysis of the deposited data

Results flagged for a closer look

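The PC-to-iGC difference of IgE was compared with that of IgG1 by the interaction term (edgeR, adjusted p under 0.05). It was called for 18 of the genes named. The naming rule partly sets this count, as Cox6a2, Uqcrq, Atp5g1, Atp5k, Uqcr10 and Atp5e were picked for their calls in this term. Of the 92 genes, 12 were called positive and 16 negative, beside 42.9% of all genes called in either direction. The count of 18 therefore does not set these genes apart from genes at large. Values are log2 differences, IgE minus IgG1, from deposited counts. Of the mitochondrial genes, complex I had mt-Nd1 at 0.59, mt-Nd2 at 0.74, mt-Nd4 at 0.79 and mt-Nd5 at 0.83. mt-Cytb of complex III was at 0.38, mt-Co1 of complex IV at 0.82 and mt-Atp8 of complex V at 2.54. All 7 are positive, so the difference of PC from iGC was more negative in IgG1 than in IgE. Nuclear genes had both signs, with Uqcrq at 0.54, Atp5g1 at 0.52, Cox6a2 at 0.70 and Cox7a2l at 0.23 above 0. Below 0 were Atp5k at -0.60, Uqcr10 at -0.54, Atp5e at -0.49, Cox6b1 at -0.46, Cox4i1 at -0.28, Sdhd at -0.21 and Cox6b2 at -1.15. Of the 12 fits that left out 1 library each, Cox4i1 lost its call in 10 (-0.36 to -0.18 over the 12), Cox6a2 lost its call in 8 (0.58 to 0.95 over the 12), Cox6b2 lost its call in 6 (-1.47 to -0.97 over the 12), Cox7a2l lost its call in 9 (0.17 to 0.29 over the 12), mt-Cytb lost its call in 9 (0.27 to 0.50 over the 12) and Sdhd in 5 (-0.23 to -0.17). The other 12 genes kept their calls in all of these fits. With total counts, the term was not called for mt-Nd1 (0.35), mt-Cytb (0.14), Cox6a2 (0.48), Cox7a2l (-0.0038), Uqcrq (0.31) and Atp5g1 (0.29). With total counts without immunoglobulin genes, the term was not called for mt-Cytb (0.19), Cox6a2 (0.52), Cox7a2l (0.04), Uqcrq (0.35) and Atp5g1 (0.33). With limma on log2 TPM, the term was not called for mt-Nd1 (0.47), mt-Cytb (0.25), Cox6b2 (-0.32) and Cox7a2l (0.10). With the replicate block, the term was not called for mt-Cytb and Cox4i1. With only the groups compared, the term was not called for mt-Cytb, Cox4i1, Cox6a2, Cox6b2 and Cox7a2l. With DESeq2, the term was not called for Sdhd, Cox4i1 and Cox6b2. With no filter on low counts, the term was not called for Sdhd, Cox4i1, Cox6a2, Cox6b2 and Cox7a2l. The calls of Atp5e, Atp5k, Cox6b1, mt-Atp8, mt-Co1, mt-Nd2, mt-Nd4, mt-Nd5 and Uqcr10 were kept under each of these alternatives.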

How the results depend on the processing

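The numbers of the 92 genes called in the comparisons of IgE PC with IgG1 PC, IgE with IgG1 iGC, IgE PC with IgE iGC, IgG1 PC with IgG1 iGC, the interaction, and iGC, IgE PC and IgG1 PC with D6 were 43, 0, 46, 70, 28, 53, 52 and 71 as deposited. Of all genes tested, 58.1%, 3.87%, 64.1%, 59.1%, 42.9%, 72.3%, 76.4% and 71.9% were called in the same order. These numbers count calls in either direction, so a turn in direction can leave them unchanged. In IgG1 PC against IgG1 iGC, limma on log2 TPM gave 63 calls. The nuclear genes among them were 5 higher and 47 lower, against 53 higher and 6 lower as deposited. The numbers for the 92 genes stayed within 1.5 times the deposited ones under DESeq2, TMM without the mitochondrial genome and no filter on low counts. So they did with only the groups compared, pooling and the other alternatives, with these exceptions. Total counts gave 70 for IgE PC against IgG1 PC and 58 for the interaction, total counts without immunoglobulin genes gave 71 and 53, DESeq2 gave 1 for IgE against IgG1 iGC, and limma on log2 TPM gave 77 for IgE PC against IgE iGC, 45 for the interaction and 83 for IgE PC against D6; the cause was not tested. Leaving out 1 library gave 34 to 56, 0 to 0, 40 to 46, 63 to 70, 16 to 40, 47 to 54, 48 to 52 and 63 to 75 in the order above. For the interaction, the count was 16 without IgE PC replicate 3, 17 without IgE PC replicate 1, 17 without IgG1 iGC replicate 1, 18 without IgE iGC replicate 1 and 40 without IgG1 PC replicate 2. The log2 ratio of mitochondrial to nuclear counts then ranged from -1.28 to -0.91 for IgG1 PC over IgG1 iGC, -0.30 to -0.16 for IgE PC over IgE iGC and 0.58 to 0.95 for IgE PC over IgG1 PC. The replicate numbers do not show pairing: in 0 of 10 pairs of groups did all same-numbered libraries correlate above 0.1 in their deviations from the group means (range -0.23 to 0.15), and fits with this replicate block called 42, 0, 48, 70, 25, 53, 53 and 72.

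Log2 fold changes of named genes that turned sign against the deposited, TMM-scaled fit were as follows. With pooled counts they were mt-Co2 0.61 in IgE PC against IgG1 PC, mt-Atp6 -0.28 in IgE PC against IgE iGC, mt-Co2 -0.71 and mt-Atp6 -1.27 in IgG1 PC against IgG1 iGC, mt-Co2 0.67 in the interaction, mt-Atp6 -0.085 in IgE PC against D6, mt-Co2 -0.60 and mt-Atp6 -1.04 in IgG1 PC against D6; the copies' counts are the cause by construction. With total counts without immunoglobulin genes it was Sdha -0.16 in the interaction. With total counts they were Sdha -0.15 in IgE PC against IgG1 PC, mt-Cytb -0.44, Sdha -0.38, Sdhb -0.42, Sdhd -0.42 and Cox7a2 -0.13 in IgE PC against IgE iGC, Sdha -0.18, Sdhb -0.0085 and Cox4i1 -0.036 in IgG1 PC against IgG1 iGC. They were Sdha -0.20 and Cox7a2l -0.0038 in the interaction, mt-Cytb -0.31, mt-Co1 -0.18, Sdha -0.26, Sdhb -0.39, Cox4i1 -0.42, Cox6a1 -0.26, Cox6b1 -0.44 and Cox7a2 -0.47 in IgE PC against D6, Sdha -0.11, Sdhb -0.026, Sdhd -0.25 and Cox7a2 -0.002 in IgG1 PC against D6. With limma on log2 TPM they were mt-Cytb -0.71, Sdha -0.72, Sdhb -0.68, Sdhd -0.67, Cox6a1 -0.20, Cox7a2 -0.35 and Ndufa4 -0.082 in IgE PC against IgE iGC, Sdha -0.49, Sdhb -0.38, Sdhd -0.34, Cox4i1 -0.46, Cox6b1 -0.35 and Cox7a2 -0.10 in IgG1 PC against IgG1 iGC. They were mt-Cytb -0.66, mt-Co1 -0.53, Sdha -0.63, Sdhb -0.73, Cox4i1 -0.79, Cox6a1 -0.61, Cox6b1 -0.85, Cox7a2 -0.80 and Ndufa4 -0.33 in IgE PC against D6, Sdha -0.50, Sdhb -0.47, Sdhc -0.056, Sdhd -0.69, Cox4i1 -0.41, Cox6a1 -0.37, Cox6b1 -0.20 and Cox7a2 -0.56 in IgG1 PC against D6. Depth limits the least abundant genes: the lowest count of a nuclear gene in a library was 4.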
